A study of Homo sapiens with 12 samples.

Results

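Aminoacyl-tRNA synthetases are the enzymes that load each amino acid onto its transfer RNA, and their transcripts were followed in LNCaP cells, an androgen-responsive human prostate cancer line, after transfection with a microRNA. The set was chosen by gene symbol and holds 33 genes, of which 19 encode cytosolic enzymes (names ending in 1, with FARSA and FARSB), 11 encode mitochondrial enzymes (names ending in 2) and 3 encode scaffold subunits of the multi-synthetase complex. Of the 33 genes, 27 had a probe set of their own on the arrays and 26 were bright enough to be tested, among 6821 genes tested in all. In the study the cells received miR-130a, miR-203 or miR-205, or as their control a scramble sequence, and total RNA of each culture was measured on an expression array. Each of the 4 groups had 3 arrays, 12 in all, which the labels call biological replicates. All groups are cultures of the same tumour line, so no other cell line or tissue backs the values, and the labels give neither the dose, the time after transfection nor the arm of each microRNA.

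The cytosol and the mitochondria each make proteins, and most amino acids have an enzyme for either compartment, encoded by separate nuclear genes. GARS1 and KARS1 are known exceptions, since each encodes the glycyl or lysyl enzyme of both compartments. Several cytosolic enzymes are bound together with scaffold proteins in the multi-synthetase complex. Many genes for cytosolic synthetases are known targets of ATF4, the transcription factor of the amino acid response, and WARS1, the tryptophanyl enzyme, is known to be induced by interferon gamma.

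Values are log2 expression values, and a difference is the mean of a microRNA group minus that of scramble (or of a second microRNA), given ± its standard error (SE) from a limma fit of all 12 arrays with 3 arrays per group. A gene was called where its p-value, adjusted by Benjamini-Hochberg over the 6821 genes, was under 0.05. The 3 comparisons with scramble use the same 3 scramble arrays. Over the tested genes, r between arrays was 0.992 to 0.997 within a group and 0.964 to 0.986 across groups, and array medians lay between 2.76 and 2.78. All 8 measured LNCaP and luminal prostate markers were above the array median on all 12 arrays, while 0 of 3 basal markers and 0 of 5 leukocyte and endothelial markers reached it on any array. The 8 luminal log2 levels summed to 65.2 to 65.5 on miR-130a arrays, 61.3 to 62.1 on miR-203 arrays and 65.8 to 66.5 on miR-205 arrays, against 64.8 to 65.9 on scramble arrays, so the miR-203 arrays stood apart. Of 7 fibroblast and smooth muscle markers, 2 (COL1A1 and ACTA2) were above it on every array and 3 (COL1A2, DCN and LUM) on none; the 7 log2 levels summed to 19.8 to 20.2 on miR-130a arrays, 18.8 to 19.3 on miR-203 arrays and 18.8 to 18.9 on miR-205 arrays, against 19.2 to 19.8 on scramble arrays. The part of these shifts in the results was not tested. The gap between 3′ and 5′ probe sets of ACTB and GAPDH, a sign of RNA quality, overlapped between each microRNA group and scramble. Since RNA was taken from whole cultures, fewer cells that express a gene and less RNA of it per cell cannot be told apart.

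Mature microRNA sequences are shown because the seed, bases 2 to 8, is what a microRNA mainly pairs with in its targets; the labels do not say which arm was transfected. In RefSeq on GRCh38.p14, hsa-miR-203a-3p lies at chr14:104117469-104117490 and hsa-miR-205-5p at chr1:209432166-209432187, both on the plus strand. The third microRNA is miR-130a. Capitals mark the seed, which differs between the printed pair.
hsa-miR-203a-3p: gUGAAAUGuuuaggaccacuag
hsa-miR-205-5p: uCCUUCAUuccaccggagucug

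Start regions of the synthetase genes, from 250 bases before to 50 bases after the annotated start, are shown because members moved together. RefSeq held such a window for 29 of the 33 genes, and 3 motifs were searched on both strands. The letters TGATGNAA, the form of the site that ATF4 binds together with C/EBP proteins, stood in 7 of 16 cytosolic genes with a window (43.8%), 1 of 10 mitochondrial genes (YARS2) and 0 of 3 scaffold genes, against 4.46% of 27305 genes (3.62% of all 35116 windows). The 7 cytosolic genes were AARS1, CARS1, GARS1, IARS1, MARS1, NARS1 and TARS1. The core of the interferon-stimulated response element (GAAA, any pair of bases, GAAA) stood in WARS1 alone among the 29 (4.38% of all genes), and TTCNNNGAA, the form bound by STAT proteins, in CARS1, TARS1, WARS1 and WARS2 (13.8%, against 9.38% of all genes). None of the printed matches overlapped another. The stretch printed for CARS1 also holds its TTCNNNGAA match, which is left in small letters. The 30 bases around the match are printed in GRCh38.p14, 5′ to 3′, for the 6 tested cytosolic genes with TGATGNAA and for the match of the interferon motif in WARS1; capitals mark the match. They lie at chr7:30594834-30594863 (minus strand) for GARS1, chr11:3057407-3057436 (plus) for CARS1, chr16:70289675-70289704 (plus) for AARS1, chr5:33440956-33440985 (minus) for TARS1, chr18:57621804-57621833 (minus) for NARS1, chr9:92293692-92293721 (plus) for IARS1 and chr14:100375383-100375412 (minus) for WARS1.
GARS1: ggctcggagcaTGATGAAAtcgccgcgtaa
CARS1: ttcctagaatcTGATGCAAccgccgccccg
AARS1: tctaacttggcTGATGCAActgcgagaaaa
TARS1: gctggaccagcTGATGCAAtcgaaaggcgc
NARS1: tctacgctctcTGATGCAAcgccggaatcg
IARS1: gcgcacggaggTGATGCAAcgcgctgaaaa
WARS1: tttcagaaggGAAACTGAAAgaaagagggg

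Transcripts of cytosolic enzymes lay mostly below their scramble level with each microRNA, with a difference under 0 for 12 of 16 tested genes with miR-130a, 14 with miR-203 and 14 with miR-205. For the 9 mitochondrial enzymes it was under 0 for 4, 1 and 4 genes. Of the 16 cytosolic genes, 9 fell, 2 rose and 5 did not pass with miR-130a, with a median difference of -0.35. In that comparison 23.6% of all tested genes were called, 11.6% lower and 12% higher. With miR-203, 7 fell, 0 rose and 9 did not pass, with a median of -0.20, where 36.2% of all genes were called, 18.9% lower and 17.3% higher. With miR-205, 11 fell, 1 rose and 4 did not pass, with a median of -0.28, where 26.1% of all genes were called, 14.8% lower and 11.3% higher. The share of cytosolic genes that fell was thus above the share over all genes in each comparison. Over all tested genes the median difference was -0.01 with miR-130a, 0.01 with miR-203 and -0.00 with miR-205. All 3 microRNA arrays lay below all 3 scramble arrays for 10 of 16 cytosolic genes with miR-130a (19.9% of all genes), 10 with miR-203 (22.6%) and 13 with miR-205 (21.0%). They lay above all scramble arrays for 2 cytosolic genes with miR-130a (19.3% of all genes), 0 with miR-203 (21.6%) and 1 with miR-205 (18.0%). By the moderated F-test 13 of 16 cytosolic genes differed among the 4 groups, against 4 of 9 mitochondrial genes and 60.8% of all genes tested.

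**Figure D1:**
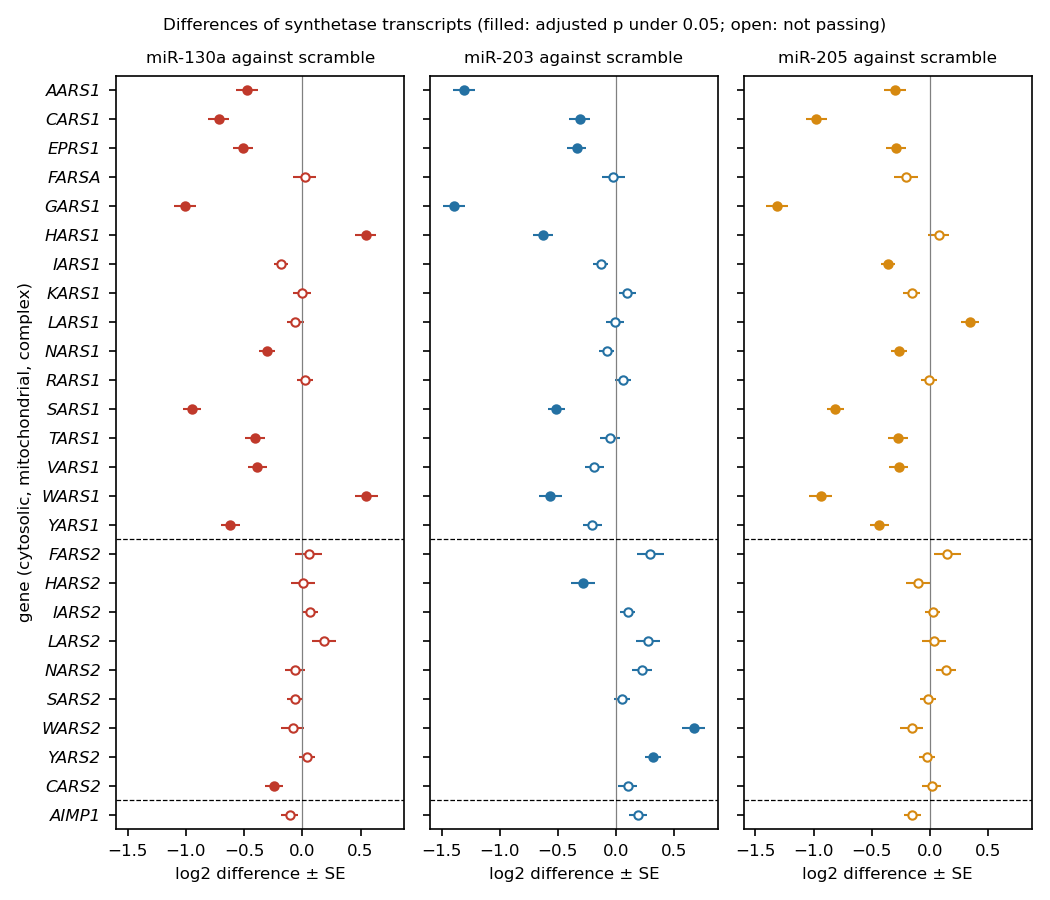
Log2 difference from scramble (horizontal axis, ± SE, 3 arrays per group) of each tested member, in 1 panel per microRNA; genes run down the page with cytosolic enzymes above the upper dashed line, mitochondrial enzymes between the lines and AIMP1 below, and filled points passed the adjusted p threshold of 0.05. Cytosolic points reach -1.01 with miR-130a, -1.39 with miR-203 and -1.31 with miR-205, all for GARS1, which encodes the glycyl enzyme of both compartments. The points of the mitochondrial class lie between -0.28 and 0.67.

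The glycyl-tRNA synthetase GARS1 had the largest decrease among the members with each microRNA. Its log2 values were 9.25, 9.27 and 9.31 with miR-130a, 9.04, 8.96 and 8.67 with miR-203, 8.91, 9.01 and 8.99 with miR-205, and 10.36, 10.15 and 10.34 with scramble. All 9 microRNA arrays lay below all scramble arrays. GARS1 fell by 1.01 ± 0.09 with miR-130a (adjusted p = 6.33e-06), fell by 1.39 ± 0.09 with miR-203 (adjusted p = 2.53e-07) and fell by 1.31 ± 0.09 with miR-205 (adjusted p = 9.96e-07), that is to 0.497, 0.380 and 0.402 of its scramble level on the linear scale.

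The seryl-tRNA synthetase SARS1 had values of 7.79, 7.76 and 7.79 with miR-130a, 8.30, 8.25 and 8.08 with miR-203, 7.86, 7.99 and 7.89 with miR-205, and 8.76, 8.67 and 8.75 with scramble. Every microRNA array was below every scramble array, and those of miR-203 were the closest to scramble. SARS1 fell by 0.95 ± 0.07 with miR-130a (adjusted p = 1.07e-06), by 0.52 ± 0.07 with miR-203 (adjusted p = 0.000153) and by 0.81 ± 0.07 with miR-205 (adjusted p = 7.22e-06). The cysteinyl enzyme CARS1 had values of 6.86, 7.01 and 6.91 with miR-130a, 7.41, 7.35 and 7.24 with miR-203, 6.73, 6.57 and 6.69 with miR-205, and 7.81, 7.50 and 7.63 with scramble. It fell by 0.72 ± 0.09 with miR-130a (adjusted p = 8.62e-05), by 0.31 ± 0.09 with miR-203 (adjusted p = 0.0157) and by 0.98 ± 0.09 with miR-205 (adjusted p = 7.66e-06). The groups did not overlap with scramble, but the call with miR-203 was lost without miR-203 replicate 3 (adjusted p = 0.059) or scramble replicate 1 (adjusted p = 0.0617).

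The alanyl enzyme AARS1 stood apart with miR-203. Its values were 8.59, 8.61 and 8.66 with miR-130a, 7.85, 7.94 and 7.58 with miR-203, 8.78, 8.89 and 8.72 with miR-205, and 9.16, 9.01 and 9.12 with scramble. The miR-203 arrays were below all others, and no microRNA group overlapped with scramble. AARS1 fell by 0.47 ± 0.09 with miR-130a (adjusted p = 0.00237), by 1.31 ± 0.09 with miR-203 (adjusted p = 3.7e-07) and by 0.30 ± 0.09 with miR-205 (adjusted p = 0.0299). The call with miR-205 was lost without miR-205 replicate 1 or 3 or scramble replicate 1 or 3, with adjusted p between 0.0813 and 0.107.

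EPRS1, the glutamyl-prolyl enzyme of the multi-synthetase complex, had values of 8.58, 8.59 and 8.57 with miR-130a, 8.86, 8.72 and 8.68 with miR-203, 8.78, 8.76 and 8.85 with miR-205, and 9.19, 8.91 and 9.17 with scramble. Scramble replicate 2 was the lowest scramble array and still above all microRNA arrays. EPRS1 fell by 0.51 ± 0.08 with miR-130a (adjusted p = 0.000674), by 0.34 ± 0.08 with miR-203 (adjusted p = 0.00642) and by 0.29 ± 0.08 with miR-205 (adjusted p = 0.0202). The call with miR-205 was lost without miR-205 replicate 1 or 2 or scramble replicate 1 or 3, with adjusted p between 0.0577 and 0.0775. The tyrosyl enzyme YARS1 had values of 7.34, 7.34 and 7.33 with miR-130a, 7.84, 7.74 and 7.66 with miR-203, 7.44, 7.59 and 7.53 with miR-205, and 8.07, 7.78 and 8.0 with scramble. Only the miR-203 arrays reached into the scramble range. YARS1 fell by 0.62 ± 0.08 with miR-130a (adjusted p = 0.000172) and by 0.43 ± 0.08 with miR-205 (adjusted p = 0.00193), and with miR-203 its difference of -0.20 did not pass (adjusted p = 0.0728, and 0.0156 without scramble replicate 2).

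**Figure D2:**
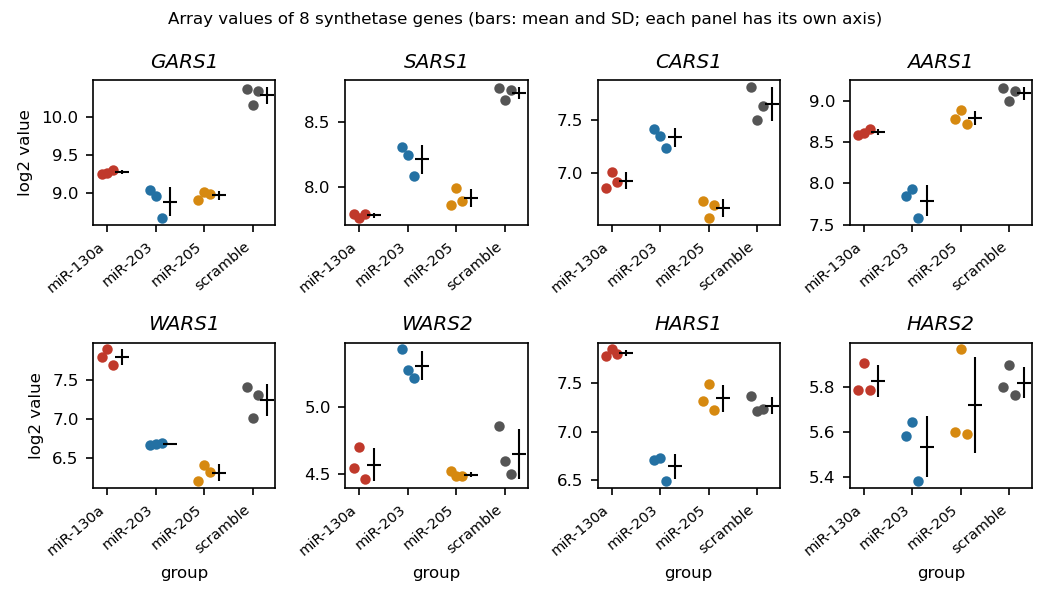
Log2 values (vertical axes, 1 per panel) of 8 synthetase genes on the 12 arrays by group; points are arrays and bars show the mean and SD of 3 arrays. GARS1, SARS1, CARS1 and AARS1 lie below scramble in every microRNA group, WARS1 and HARS1 are above scramble with miR-130a and below it with miR-203, WARS2 lies above scramble with miR-203, and HARS2 overlaps with scramble except with miR-203.

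Smaller decreases were measured for 4 other cytosolic genes. The threonyl enzyme TARS1 fell by 0.41 ± 0.09 with miR-130a and by 0.28 ± 0.09 with miR-205, the asparaginyl enzyme NARS1 by 0.30 ± 0.07 and by 0.27 ± 0.07, and the valyl enzyme VARS1 by 0.39 ± 0.08 and by 0.27 ± 0.08. With miR-203 their differences were -0.05, -0.08 and -0.19 and did not pass. The isoleucyl enzyme IARS1 fell by 0.36 ± 0.06 with miR-205 (adjusted p = 0.000885), while its differences of -0.18 with miR-130a (adjusted p = 0.0506) and -0.13 with miR-203 did not pass. The TARS1 call with miR-205 was lost without miR-205 replicate 1 or 3 or scramble replicate 2 or 3 (adjusted p between 0.0727 and 0.097), and that of VARS1 without miR-205 replicate 1 or 3 or any 1 scramble array (adjusted p between 0.0503 and 0.117).

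Among the other cytosolic genes, FARSA, the alpha subunit of the phenylalanyl enzyme, KARS1, the lysyl enzyme, and RARS1, the arginyl enzyme, passed in no comparison with scramble. The 95% intervals of their differences reached from -0.42 to 0.24 for FARSA, from -0.32 to 0.26 for KARS1 and from -0.15 to 0.21 for RARS1 over the 3 microRNAs, so decreases of the size seen for GARS1 lay outside them. RARS1 was listed at exactly 8.45 on all 3 scramble arrays and on other arrays, which narrows its measured spread. The leucyl enzyme LARS1 differed from the rest of its class with miR-205, where it had 6.57, 6.39 and 6.47, against 6.15, 6.06 and 6.19 with scramble. Its probe set is of a type that can also bind related sequences. LARS1 rose by 0.34 ± 0.08 (adjusted p = 0.00452), and its differences with miR-130a and miR-203 were -0.06 and -0.01. The methionyl enzyme MARS1 and the glutaminyl enzyme QARS1 were named only on probe sets that list several genes, so no value is given for them, and FARSB, the beta subunit of the phenylalanyl enzyme, was not analysed here.

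WARS1 and HARS1 were the cytosolic genes that rose with miR-130a. WARS1 had values of 7.80, 7.90 and 7.70 with miR-130a, 6.67, 6.68 and 6.70 with miR-203, 6.20, 6.41 and 6.32 with miR-205, and 7.41, 7.02 and 7.31 with scramble. The miR-130a arrays were above and the miR-203 and miR-205 arrays below every scramble array. WARS1 rose by 0.55 ± 0.10 with miR-130a (adjusted p = 0.00142), fell by 0.57 ± 0.10 with miR-203 (adjusted p = 0.000731) and fell by 0.94 ± 0.10 with miR-205 (adjusted p = 2.17e-05). A second probe set of WARS1 gave 0.51, -0.61 and -0.90, all passing when every probe set was fitted. Interferon-induced genes were measured beside it, and 10 were tested. With miR-130a 9 rose and 0 fell (median 2.50), and with miR-203 6 rose and 0 fell (median 0.83). With miR-205 1 rose and 0 fell (median -1.78e-05). Over all tested genes 12%, 17.3% and 11.3% were called higher in these comparisons. The 1 of 10 with miR-205 was thus near the share over all genes. IFIT1, which binds viral RNA, differed by 6.73, 4.81 and 0.85 with miR-130a, miR-203 and miR-205. Some of the interferon-induced genes were tested only because they were bright with a microRNA, so their counts are a description. Their part in the WARS1 values was not tested.

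HARS1, the histidyl enzyme, had values of 7.78, 7.85 and 7.81 with miR-130a, 6.71, 6.73 and 6.49 with miR-203, 7.31, 7.49 and 7.22 with miR-205, and 7.37, 7.21 and 7.23 with scramble. Only the miR-205 arrays overlapped with scramble. HARS1 rose by 0.54 ± 0.09 with miR-130a (adjusted p = 0.000689) and fell by 0.63 ± 0.09 with miR-203 (adjusted p = 0.00014), and its difference of 0.08 with miR-205 did not pass (95% interval -0.12 to 0.27). HARS1 and HARS2 are neighbours on opposite strands, and their start windows share 184 bases at chr5:140691321-140691504. HARS2, the mitochondrial histidyl enzyme, had differences of 0.01 with miR-130a and -0.10 with miR-205 that did not pass. With miR-203 it had 5.58, 5.64 and 5.38, against 5.80, 5.90 and 5.76 with scramble, a decrease of 0.28 ± 0.10 with adjusted p = 0.0497 that passed in 6 of 23 alternative settings.

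**Figure D3:**
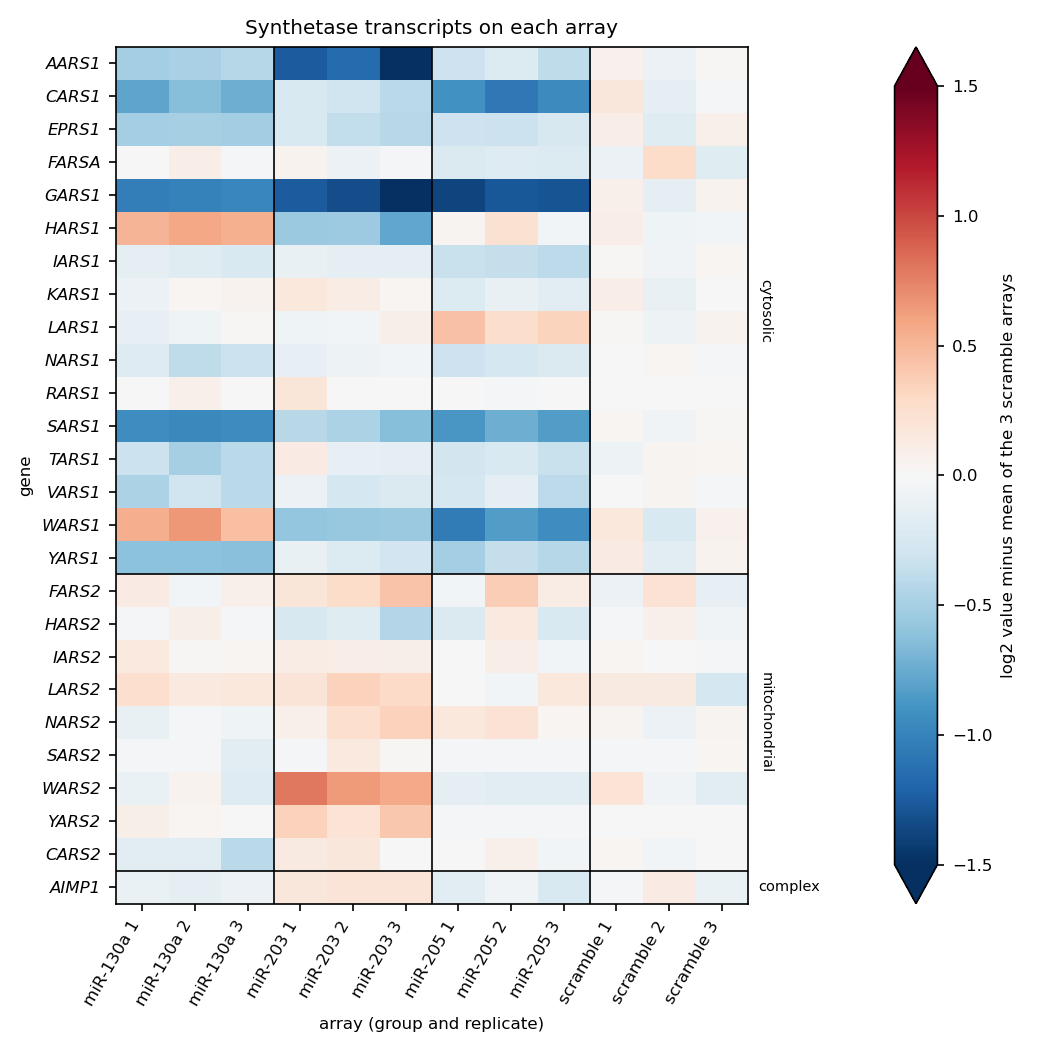
Log2 value minus the mean of the 3 scramble arrays (colour; red higher, blue lower) for the 26 tested members (rows, by class) on each of the 12 arrays (columns, by group). Blue rows such as GARS1, SARS1 and CARS1 run through all 3 microRNA groups, WARS1 and HARS1 are red with miR-130a and blue with miR-203, and mitochondrial rows stay mostly pale apart from WARS2 with miR-203.

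Of the 9 tested mitochondrial genes, 1 fell and 0 rose with miR-130a, 1 fell and 2 rose with miR-203, and 0 changed with miR-205. The median differences were 0.01, 0.22 and 0.01. The 3 called with miR-203 are near the share called over all genes in that comparison, and the counts with miR-130a and miR-205 are below theirs. An unadjusted limma p under 0.05 was found for 1, 6 and 0 of the 9 with miR-130a, miR-203 and miR-205, and for 2414, 3128 and 2523 of all 6821 genes. The miR-203 arrays also stood apart in the summed luminal markers, as given above. WARS2, the mitochondrial tryptophanyl enzyme, had values of 4.55, 4.70 and 4.46 with miR-130a, 5.44, 5.29 and 5.22 with miR-203, 4.52, 4.48 and 4.48 with miR-205, and 4.86, 4.60 and 4.50 with scramble. The miR-203 arrays stood above all others, and the other groups overlapped with scramble. WARS2 rose by 0.67 ± 0.10 with miR-203 (adjusted p = 0.000205), and its differences of -0.08 with miR-130a and -0.16 with miR-205 did not pass.

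YARS2, the mitochondrial tyrosyl enzyme, rose by 0.31 ± 0.07 with miR-203 (adjusted p = 0.00271), to 6.29, 6.15 and 6.35, against 5.95 on every scramble array, an equality that narrows its measured spread. CARS2, the mitochondrial cysteinyl enzyme, had 4.76, 4.74 and 4.51 with miR-130a, against 4.95, 4.88 and 4.92 with scramble. Its decrease of 0.24 ± 0.08 had adjusted p = 0.043 and passed in 11 of 23 alternative settings. FARS2 (phenylalanyl), LARS2 (leucyl) and NARS2 (asparaginyl) had differences of 0.29, 0.28 and 0.22 with miR-203 that did not pass (adjusted p = 0.0655, 0.053 and 0.0527). These p-values are close to the threshold, and the 95% intervals all lay above 0. Another probe set of FARS2 above the array median gave -0.004 with miR-203 (adjusted p = 0.976 in the limma fit of all probe sets). The second probe set of LARS2 gave 0.18 (adjusted p = 0.0749 in that fit). IARS2 (isoleucyl) and SARS2 (seryl) passed in no comparison with scramble, with differences between -0.07 and 0.10. SARS2 was dim and was listed at exactly equal values on several arrays. RARS2 (arginyl) was listed at the lowest value of the table, 2.36, on all 12 arrays and was not tested, and VARS2 was not analysed here.

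For 9 amino acids both the cytosolic and the mitochondrial gene were tested, which allows the classes to be set side by side within an amino acid. Most mitochondrial genes of these pairs were dimmer. Their mean log2 levels ran from 3.24 (SARS2) to 8.38 (IARS2), against 6.20 (LARS1) to 10.07 (NARS1) for the cytosolic genes. The part of brightness in the gaps was not tested. The cytosolic difference was the more negative in 7 of 9 pairs with miR-130a, 9 of 9 with miR-203 and 7 of 9 with miR-205, and the median gap between the members of a pair was -0.25, -0.34 and -0.40. Taken array by array, the cytosolic minus mitochondrial value lay below that of every scramble array on all 3 arrays in 5, 8 and 7 pairs, and above it in 2, 0 and 0. The share of other gene pairs with such a pattern was not determined. For single genes, all 3 microRNA arrays lay below all scramble arrays for 19.9%, 22.6% and 21.0% of those tested. They lay above for 19.3%, 21.6% and 18.0%. The 2 pairs that opened the other way with miR-130a were those for histidine and tryptophan. For tryptophan the gap was 0.63 with miR-130a, -1.23 with miR-203 and -0.78 with miR-205. The serine pair had gaps of -0.88, -0.57 and -0.80, with SARS2 between -0.07 and 0.05. SARS2 was dim, with group means of 3.18 to 3.30 against array medians of 2.76 to 2.78. It was listed at exactly 3.23 on all 3 miR-205 arrays and on arrays of each other group, which narrows its measured spread. The leucine pair overlapped with scramble in each comparison, at -0.25, -0.28 and 0.31.

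**Figure D4:**
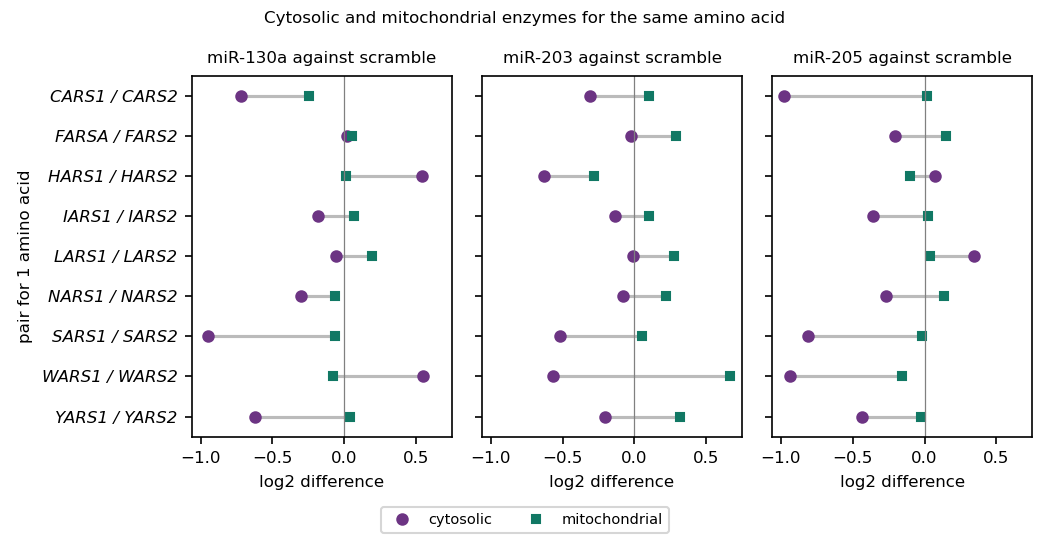
Log2 difference from scramble (horizontal axis) of the cytosolic gene (circle) and the mitochondrial gene (square) for each of 9 amino acids (rows), in 1 panel per microRNA. The circle lies left of the square in 7, 9 and 7 of 9 rows with miR-130a, miR-203 and miR-205.

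Averaged over the 16 cytosolic genes, the arrays lay at -0.29, -0.26 and -0.29 with miR-130a, -0.28, -0.35 and -0.42 with miR-203 and -0.40, -0.35 and -0.40 with miR-205, relative to the scramble mean, against 0.05, -0.06 and 0.01 for the scramble arrays themselves. The 9 microRNA arrays did not overlap with scramble. Over the 9 mitochondrial genes the arrays lay at 0.02, 0.01 and -0.06 with miR-130a, 0.17, 0.22 and 0.19 with miR-203 and -0.03, 0.07 and -0.02 with miR-205, against 0.04, 0.03 and -0.06 with scramble. Here only the miR-203 arrays stood apart from scramble. The median cytosolic difference minus the median mitochondrial difference was -0.35 with miR-130a, -0.42 with miR-203 and -0.30 with miR-205. The gap between the class means of each array, which is another measure than these medians, had a standard deviation of 0.0609 within groups. Since the genes of a class are not replicates, no p-value is given for these averages. The cytosolic class also holds GARS1 and KARS1, which encode enzymes of both compartments. The classes differed in brightness, as given for the pairs, and its part in the averages was not tested.

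**Figure D5:**
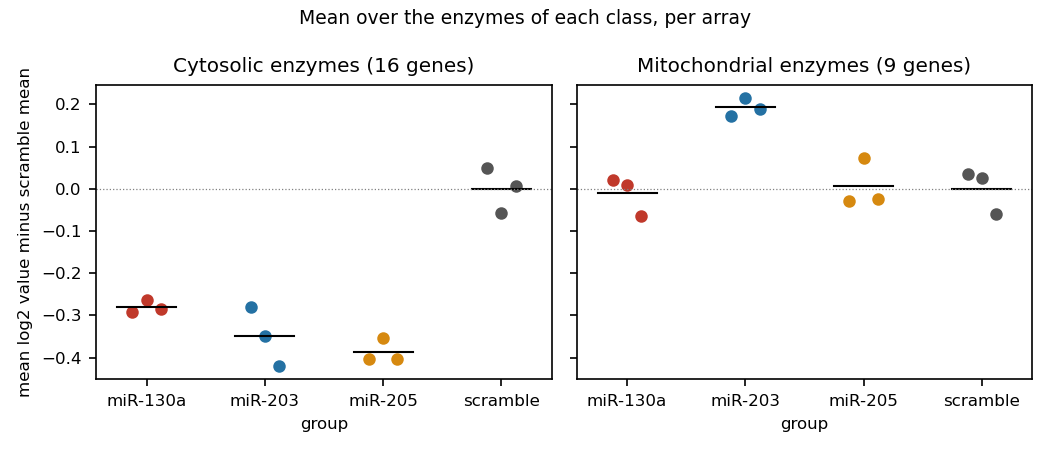
Mean log2 value over the tested cytosolic (left) and mitochondrial (right) genes on each array, relative to the mean of the scramble arrays (vertical axis, log2), by group; points are arrays and lines are group means. Cytosolic means of the microRNA arrays lie between -0.42 and -0.26, below all scramble arrays, and mitochondrial means exceed scramble with miR-203 (0.17 to 0.22).

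AIMP1, a scaffold of the multi-synthetase complex, was the tested subunit, and AIMP2 and EEF1E1 were not analysed here. Its values were 7.37, 7.32 and 7.38 with miR-130a, 7.64, 7.66 and 7.66 with miR-203, 7.30, 7.41 and 7.24 with miR-205, and 7.44, 7.59 and 7.36 with scramble. The miR-203 arrays were above all others. The differences from scramble were -0.11, 0.19 and -0.15 and did not pass (adjusted p = 0.333, 0.0632 and 0.159). Its second probe set gave -0.09, 0.01 and 0.34, so the probe sets disagreed in sign with miR-205, where the second one passed in a fit of all probe sets (adjusted p = 0.0412). For the other members with several probe sets above the array median (CARS1, EPRS1, FARSA, KARS1, VARS1, WARS1, FARS2 and LARS2), none had probe sets that passed in opposite directions. The second probe set of VARS1 did not pass with any microRNA (-0.35, -0.03 and -0.13), nor did the dimmest of 3 for EPRS1 (-0.33, -0.30 and -0.16; adjusted p = 0.0724, 0.0711 and 0.389), whose other probe set passed with each. The second probe set of CARS1 passed with miR-130a and miR-205 and not with miR-203 (-0.27, adjusted p = 0.0913). That of LARS2 rose by 0.22 with miR-130a (adjusted p = 0.0497).

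The microRNA groups also differed from each other. For miR-130a against miR-203, 5 members were higher and 10 lower, where 41.2% of all genes were called, 21.1% higher and 20.1% lower. For miR-203 against miR-205, 10 were higher and 3 lower, where 37.9% were called, 21.0% higher and 16.9% lower. Since same-numbered arrays of these groups deviated together, the replicate block was also fitted: 11 calls were left, and NARS1 (0.18, adjusted p = 0.0676 with the block) and YARS1 (0.23, adjusted p = 0.0622 with the block) lost theirs. The 37.9% over all genes is from the fit without the block, and the share with it was not determined. For miR-130a against miR-205, 5 were higher and 2 lower, below the 33.6% called over all genes (18.2% higher and 15.4% lower). The count for miR-130a against miR-205 dropped to 4 without miR-130a replicate 2 or 3 or miR-205 replicate 2 or 3, and to 3 without miR-205 replicate 1. It was 9 without miR-203 replicate 1 or scramble replicate 2, 10 with only the 6 arrays compared and 12 with array weights. The share over all genes under these settings was not determined. WARS1 was higher by 1.12 ± 0.10 with miR-130a than with miR-203 (adjusted p = 2.21e-06), and by 1.49 ± 0.10 with miR-130a than with miR-205 (adjusted p = 1.61e-07). HARS1 was higher by 1.17 ± 0.09 with miR-130a than with miR-203 (adjusted p = 5.26e-07). AARS1 with miR-203 lay below both others, at 0.83 ± 0.09 for miR-130a against miR-203 and -1.01 ± 0.09 for miR-203 against miR-205 (adjusted p = 1.36e-05 and 2.82e-06). With the replicate block the adjusted p of AARS1 for miR-203 against miR-205 was 1.49e-05.

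Lower with miR-130a than with miR-203 were CARS1, NARS1, SARS1, TARS1, YARS1, NARS2, WARS2, YARS2, CARS2 and AIMP1. Higher with miR-130a than with miR-203 were AARS1, GARS1, HARS1, WARS1 and HARS2. CARS1, IARS1, KARS1, NARS1, SARS1, WARS1, YARS1, WARS2, YARS2 and AIMP1 were higher with miR-203 than with miR-205, and AARS1, HARS1 and LARS1 were lower. Of these, NARS1 and YARS1 did not pass with the replicate block. KARS1, which passed in no comparison with scramble, differed by 0.26 ± 0.07 between miR-203 and miR-205 (adjusted p = 0.0163). With the replicate block its adjusted p was 0.0276. Between miR-130a and miR-205, CARS1, GARS1, HARS1, IARS1 and WARS1 were higher with miR-130a, and LARS1 and CARS2 lower.

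Set beside the start regions printed above, the 6 tested cytosolic genes with TGATGNAA had median differences of -0.44 with miR-130a, -0.22 with miR-203 and -0.33 with miR-205, with 5, 3 and 6 of them falling. The 7 with a window and no match (EPRS1, FARSA, HARS1, KARS1, RARS1, SARS1 and WARS1) had medians of 0.02, -0.34 and -0.20, with 2, 4 and 3 falling and 2, 0 and 0 rising. Both sets held genes with large decreases, such as GARS1 with the letters and SARS1 without them. LARS1, VARS1 and YARS1 had no window. A match is only a run of letters and says nothing of binding in these cells.

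Genes of the amino acid response other than the synthetases were lower as well. Of 29 listed, 27 were tested, of which 21 fell and 1 rose with miR-130a (median -0.69), 21 fell and 0 rose with miR-203 (median -0.71) and 23 fell and 0 rose with miR-205 (median -0.76). ATF4 itself had values of 8.90, 8.97 and 9.02 with miR-130a, 8.99, 9.09 and 8.96 with miR-203, 9.04, 9.05 and 9.08 with miR-205, and 10.00, 9.99 and 10.16 with scramble. It fell by 1.08 ± 0.07, 1.03 ± 0.07 and 0.99 ± 0.07 (adjusted p = 2.36e-07, 3.17e-07 and 9.96e-07). ASNS, which makes asparagine, fell by 1.51 ± 0.10, 1.06 ± 0.10 and 1.59 ± 0.10, and PCK2, the mitochondrial phosphoenolpyruvate carboxykinase, fell by 1.63 ± 0.09 with miR-130a, fell by 1.79 ± 0.09 with miR-203 and fell by 1.95 ± 0.09 with miR-205. The cystine transporter SLC7A11 fell by 1.62 ± 0.09 with miR-130a. The cationic amino acid transporter SLC7A1 fell by 1.90 ± 0.12 with miR-203. CHAC1, which degrades glutathione, fell by 1.90 ± 0.14 with miR-205. Each also lay below scramble with the other microRNAs. SLC7A11 averaged 7.33 with miR-203 and 7.43 with miR-205, against 8.19 with scramble. SLC7A1 averaged 7.38 with miR-130a and 7.53 with miR-205, against 7.87. CHAC1 averaged 3.62 with miR-130a and 3.87 with miR-203, against 5.07. ATF3 rose by 0.47 ± 0.14 with miR-130a. It averaged 6.03 with miR-203 and 5.63 with miR-205, against 6.21 with scramble. TGATGNAA stood in 7 of the 24 genes of this list with a start window (29.2%), against 4.46% of all genes with a window. The part of this list in the synthetase values was not tested.

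Of 17 other genes for synthetases and tRNA charging, 4 were tested, and none passed with miR-130a or miR-203. GATC, a subunit of the mitochondrial amidotransferase that makes glutaminyl-tRNA, rose by 0.61 ± 0.14 with miR-205 (adjusted p = 0.00489), to 5.70, 5.68 and 5.83, against 5.04, 5.01 and 5.33 with scramble. EIF2AK4, the kinase that senses uncharged tRNA, was not analysed here.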

How the data were processed

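The deposited table holds log2 expression values for 22277 probe sets on 12 arrays. Per the submitters' processing notes R 2.9.0, RMA and limma were used, with no role or order given, and the labels name total RNA extracted with Trizol. Of the probe sets, 19070 list 1 gene in the platform annotation, 1043 several and 2164 none; only those with 1 gene were used, each of 11963 genes by its probe set of highest mean. Genes above the array median on at least 3 arrays were tested (6821), and 1425 of them have exactly equal values on arrays of a group. Group means were fitted with limma 3.58.1 in R 4.3.3 (eBayes, 8 residual and 4.84 prior degrees of freedom), two-sided, with Benjamini-Hochberg adjustment over all tested genes and a threshold of 0.05. The number of arrays limits the precision, and p-values speak only for the spread of these cultures. The fit was tested on simulated data. Arrays of different groups share replicate numbers; deviations from the group means correlated above 0.1 in all 3 same-numbered pairs of miR-203 and miR-205 (0.171, 0.105 and 0.313) and in no pair of other groups, so the numbers were taken to pair arrays in that comparison, from the data and not the labels.

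Array values are given for members past the threshold with a difference of at least 0.5 log2 in a comparison with scramble, and for a few others described. From other gene lists up to the 2 largest changes in each direction are named, with ATF4, ASNS and EIF2AK4; other genes of this rule are not reported here. The members and lists were chosen with earlier results of these data known. Alternatives changed the scaling, the filter, the probe set, the arrays in the fit, the variance prior and the array weights, and left out equal values or 1 array. Start regions and microRNAs are from RefSeq (GRCh38.p14).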

Additional observations from a re-analysis of the deposited data

How the results depend on the processing

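Of 34 member differences from scramble that passed, 26 kept their call in every alternative run, and 8 lost it in some (AARS1, EPRS1, TARS1 and VARS1 with miR-205, CARS1 and HARS2 with miR-203, VARS1 and CARS2 with miR-130a). VARS1 with miR-130a lost it only with the probe set of largest variance (adjusted p = 0.21). HARS2 with miR-203 had adjusted p between 0.0166 and 0.173, and lost its call without any 1 array of miR-130a or scramble, miR-203 replicate 1 or 3, or miR-205 replicate 1 or 3. CARS2 with miR-130a had adjusted p between 0.0169 and 0.181, and lost it without miR-130a replicate 2 or 3, miR-203 replicate 2, miR-205 replicate 1 or 3, or any 1 scramble array. Of 44 that did not pass, 9 passed in some alternative, 8 of them with the same sign. Leaving out 1 array did so for IARS1 with miR-130a (without miR-203 replicate 1, adjusted p = 0.0456), VARS1 (without miR-203 replicate 1, 0.0477), YARS1 (without scramble replicate 2, 0.0156), FARS2 (without scramble replicate 2, 0.0215, or miR-205 replicate 2, 0.0428), LARS2 (without scramble replicate 1, 0.0336, or 2, 0.0372), NARS2 (without miR-203 replicate 1, 0.0148) and AIMP1 (without scramble replicate 2, 0.0243) with miR-203. IARS1 with miR-203 passed only under other settings (no filter, 0.0175, or an intensity trend, 0.0395). AIMP1 with miR-205 passed with the opposite sign, at 0.34, with the probe set of largest variance (0.0405).

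The count of members called for miR-130a against miR-205 was 12 with array weights, and 3 to 9 with 1 array left out; the cause was not tested. With 1 array left out the other counts were 11 to 13 for miR-130a, 8 to 13 for miR-203 and 8 to 12 for miR-205 against scramble, 12 to 15 for miR-130a against miR-203, 10 to 13 for miR-203 against miR-205 and 16 to 20 by the F-test. The cytosolic minus mitochondrial median then ran from -0.37 to -0.28 with miR-130a, -0.54 to -0.33 with miR-203 and -0.30 to -0.26 with miR-205; with miR-203 it was -0.36 with no filter, which adds genes, and -0.27 with the mean of all probe sets.

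Arrays of different groups share a replicate number in the labels. Of 18 pairs of arrays with the same number in different groups, 3 had deviations from their group means that correlated above 0.1 (range -0.112 to 0.313), all of miR-203 with miR-205, and 9 of 12 arrays correlated best with an array of their own number, a hint from the data and not the design; in the other comparisons the numbers were not taken to pair arrays. With the replicate block the counts were 12, 10 and 12 against scramble, 15 for miR-130a against miR-203, 7 for miR-130a against miR-205, 11 for miR-203 against miR-205 and 18 by the F-test, and the medians were -0.35, -0.42 and -0.30; beside NARS1 and YARS1 for miR-203 against miR-205, the block changed no call of a member in these 6 comparisons.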

Other observations

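Among genes of mitochondrial translation other than the synthetases, more fell than rose with miR-130a and miR-205, and more rose than fell with miR-203. Of 45 listed, 40 were tested: 0 rose and 7 fell with miR-130a (median -0.06), 11 rose and 4 fell with miR-203 (median 0.09), and 0 rose and 8 fell with miR-205 (median -0.12). Over all genes 23.6%, 36.2% and 26.1% were called in these comparisons, so the totals here were near or below that share. The ribosomal protein genes MRPS17 and MRPL46 rose by 0.58 ± 0.07 and 0.58 ± 0.08 with miR-203, where MRPL11 and MRPL22 fell by 0.42 ± 0.10 and 0.42 ± 0.11. MRPS35 fell by 0.59 ± 0.08 with miR-130a, and MRPL11 by 0.57 ± 0.10 with miR-205.

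Of 11 tested genes for the initiation factor eIF2, its exchange factor and its kinases and phosphatases, 1 rose and 1 fell with miR-130a, 4 rose and 0 fell with miR-203, and 0 rose and 1 fell with miR-205, again near or below the share over all genes. EIF2AK2, the kinase that binds double-stranded RNA, rose by 1.26 ± 0.11 with miR-130a, and EIF2B2 fell by 0.21 ± 0.06. EIF2B5 and EIF2S1 rose by 0.45 ± 0.09 and 0.39 ± 0.08 with miR-203. EIF2S2, the beta subunit of eIF2, fell by 0.85 ± 0.08 with miR-205. Of 4 tested genes of cytosolic elongation, EEF1A2 fell by 0.29 ± 0.09 with miR-130a and no other passed in a comparison with scramble.

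Of the 8 luminal markers, 0 rose and 1 fell with miR-130a, 1 rose and 4 fell with miR-203, and 2 rose and 2 fell with miR-205. The shares called over all genes in these comparisons were 23.6%, 36.2% and 26.1%. With miR-203 KLK2 fell by 1.60 ± 0.11 and TMPRSS2 fell by 1.30 ± 0.11, while ACP3 rose by 0.63 ± 0.07. With miR-205 KLK2 rose by 0.68 ± 0.11 and KLK3 rose by 0.56 ± 0.08, while KRT18 fell by 0.31 ± 0.08 and ACP3 fell by 0.22 ± 0.07. KLK3 fell by 0.28 ± 0.08 with miR-130a, and averaged 10.21 with miR-203, against 11.45 with scramble. VIM fell by 0.28 ± 0.10 with miR-203 and by 0.55 ± 0.10 with miR-205, and ACTA2 rose by 0.44 ± 0.11 with miR-130a and fell by 0.33 ± 0.11 with miR-203.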
